A study of Mus musculus with 8 samples.

Results

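The BCL2 family decides whether a T cell commits to mitochondrial cell death. Its transcripts were followed here in CD4 single-positive (CD4SP) thymocytes, T cells of the thymus that carry CD4 and have passed positive selection. A total of 10 family genes were named as members: the anti-apoptotic Bcl2, Bcl2l1 and Mcl1, the pore-forming effectors Bax and Bak1, and the BH3-only genes Bcl2l11, Bbc3, Pmaip1, Bid and Bmf. Of these, 9 had a probe set annotated with that symbol alone, out of 22180 genes with such a probe set. Where a member had 2 probe sets, the one that was brighter over all arrays was used. Bax had none in the annotation used here, so its level was not analysed. All 9 measured members passed the filter on low intensity, which kept 11585 genes for testing.

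The study asked how protein geranylgeranylation, a lipid attachment fed by the mevalonate pathway, bears on the exit of thymocytes from the thymus. CD4SP thymocytes were sorted from C57BL/6 mice of 2 genotypes, wild type (WT) and Pggt1b_KO (KO). Pggt1b encodes the catalytic subunit of GGTase-I, which adds the lipid to its substrate proteins. RNA of 8 samples, 4 per genotype, was amplified from nanogram amounts and hybridised to Mouse Gene 2.0 ST arrays, 1 array per sample. The labels give neither the allele nor any Cre driver of the KO, nor the age, sex or pooling of the animals, and no treatment.

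BCL-2, BCL-XL and MCL-1, the products of Bcl2, Bcl2l1 and Mcl1, hold BAX and BAK in check at the mitochondrial outer membrane. BH3-only proteins are the sensors: they bind the anti-apoptotic proteins through a short helix, and some also activate BAX and BAK directly. Once active, BAX and BAK permeabilise the membrane, cytochrome c is released and caspases are switched on. In the thymus BIM, the product of Bcl2l11, is known for the deletion of self-reactive cells, and PUMA, the product of Bbc3, contributes to it. Interleukin-7 signalling keeps BCL-2 high in cells that survive.

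Values are log2 intensities, in which 1 unit is a 2-fold change, and each probe set has its own scale, so levels are not compared between genes. Differences are KO minus WT with the standard error (SE) and 95% confidence interval of the limma fit. A gene was called at a Benjamini-Hochberg adjusted p under 0.05 over all tested genes. Pggt1b itself fell by 0.59 ± 0.072 SE (adjusted p = 0.00141), from 8.29 to 8.38 over the WT arrays to 7.57 to 7.89 over the KO arrays. Correlations between arrays, across genes and so not over independent replicates, were 0.990 to 0.994 within a genotype and 0.985 to 0.990 between genotypes. The heat-shock gene Hspa1a varied widely, with 9.94 and 9.27 in KO replicates 1 and 2, 4.27 and 7.71 in KO replicates 3 and 4, and 4.84 to 8.00 in WT. Whether the replicates are separate animals is not stated in the labels, and p-values therefore cover the spread between these samples alone, which may be technical.

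Defining transcripts of CD4SP thymocytes were present in both genotypes. Cd4 had a mean of 12.26, and Cd3g, Cd3e, Ccr7 and Lef1 had means from 12.36 to 12.54. Of 13 tested genes of this list only the transcription factor Gata3 was called, lower in KO (-0.26). Of 6 tested CD8 lineage genes 3 were lower in KO (Crtam, Nkg7 and Cd8a). The summed linear intensity of the list's 8 genes with a probe set was 2763 to 3486 in WT and 2161 to 2684 in KO. Such sums take in genes under the intensity filter where a list has any, and bright probe sets weigh most in them. For the double-positive list, the stage before, 2 of 11 were lower (Bcl6 and Cd8a), with sums of 4913 to 5596 against 3858 to 4746. These 2 lists share Cd8a and the bright Cd8b1, which was not called (-0.13, limma adjusted p = 0.279), so their sums are not separate. Over all tested genes 8.53% were lower. For regulatory T cells 3 of 11 were lower (Tnfrsf4, Tnfrsf18 and Gpr83), with sums of 5950 to 6804 against 4742 to 5619. Foxp3, the defining factor of these cells, stood at 0.17 (adjusted p = 0.505) and Nrp1 at 0.13 (0.609), neither called. Markers of other cells lay in part under the intensity filter and in part above it, and Ighm (mean 11.28), Pecam1 (10.83) and Cst3 (9.36) were bright. Of the genes with a probe set, 2 of 9 passed the filter for B cells (Ighm called higher, at 0.68), 7 of 14 for myeloid and dendritic cells (Fcgr3 higher, at 0.54, with a list median of -0.12 and Lyz2 and Cst3, not called, at -0.29 and -0.12) and 5 of 10 for stromal and endothelial cells (Pecam1 higher, at 0.24). For thymic epithelium 4 of 8 passed, with none called and none at an unadjusted p under 0.05 (limma), and for erythroid cells 1 of 2 passed (Tfrc lower, at -0.31). In bulk samples, fewer cells of such a type and less RNA per cell cannot be told apart. The part of these genes in the results below was not tested.

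In KO cells Bbc3 and Pmaip1, both BH3-only genes, rose, and the effector Bak1 fell. Bbc3 stood 1.64-fold higher, Pmaip1 1.26-fold higher and Bak1 1.34-fold lower. None of the 3 anti-apoptotic genes was called. Of the 9 tested members 2 were thus higher, 1 was lower and 6 did not pass the test, while 3 were higher and 3 lower at an unadjusted p under 0.05. Over all tested genes 13.0% were called, 4.45% higher and 8.53% lower. At an unadjusted p under 0.05 (limma) the share was 29.2%, with 1157 higher and 2221 lower of 11585 genes. The members' median difference was 0.035, against -0.030 over all tested genes. The 9 genes are too few for their share of 33.3% to be read against that background, and they are described one by one.

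**Figure D1:**
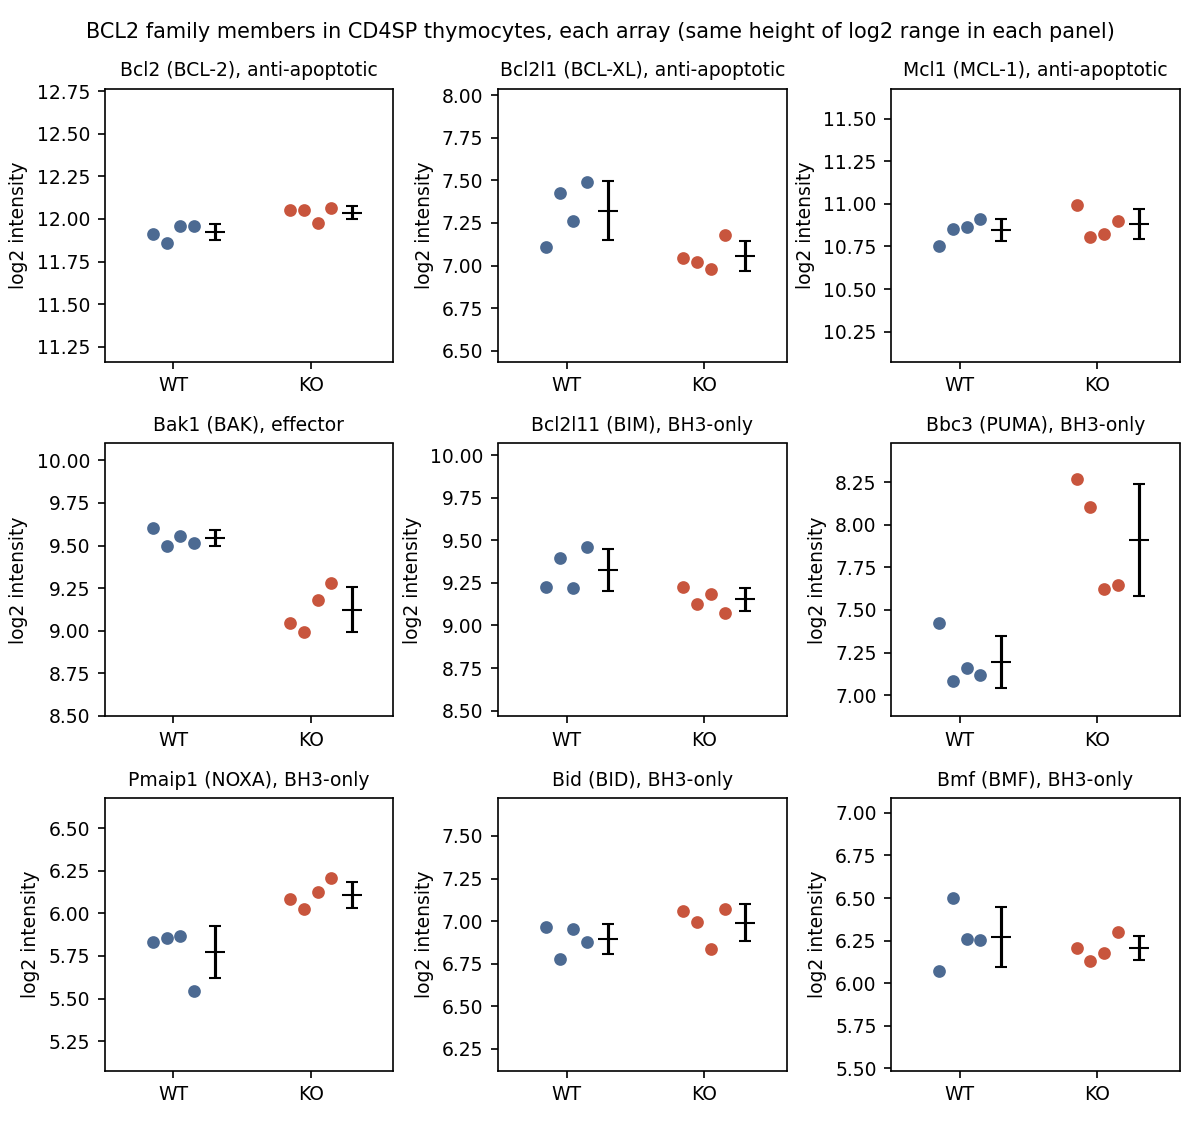
Log2 intensity of the 9 measured members in each of the 4 WT arrays (blue) and 4 KO arrays (red), with the mean and SD of each genotype in black; every panel spans the same height in log2 units. Bbc3 and Pmaip1 lie higher in all KO arrays and Bak1 lies lower in all, while Mcl1, Bid and Bmf overlap.

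Bbc3 encodes PUMA, a BH3-only protein that binds all the main anti-apoptotic proteins. It stood at 7.42, 7.08, 7.16 and 7.12 in WT replicates 1 to 4 and at 8.27, 8.10, 7.62 and 7.65 in KO replicates 1 to 4. Every KO array lay above every WT array, and the KO arrays were spread more widely, with replicates 1 and 2 above replicates 3 and 4. The mean went from 7.20 ± 0.15 to 7.91 ± 0.33 (SD, n = 4 per genotype). The difference was 0.72 ± 0.15 SE (95% interval 0.39 to 1.04, adjusted p = 0.0140). Only 109 of the 11585 tested genes, Bbc3 included, differed by as much in either direction.

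The KO replicates with the higher Bbc3, 1 and 2, were also those with the highest Hspa1a. In WT the order was different: replicate 1, with the highest Bbc3, had the lowest Hspa1a. With the level of these heat-shock genes (the mean of Hspa1a and Hspa1b) in the model the difference in Bbc3 was 0.61 (adjusted p = 0.0372). Without KO replicates 1 and 2 it was 0.44 (adjusted p = 0.0760) and without WT replicates 2 and 3 it was 0.64 (adjusted p = 0.129), and neither fit called it. These WT arrays were not the 2 with the highest Hspa1a, which was 5.65 in WT replicate 2 and 6.04 in WT replicate 4. Both refits had fewer arrays. Over all genes 515 were called higher and 988 lower with all arrays, 136 and 122 in the first refit, and 150 and 145 in the second.

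Transcription of Bbc3 is known to respond to p53 and to FOXO factors. The RefSeq promoter windows of the members (GRCm38.p6, 250 bases before to 50 after each annotated start, 16 windows of 9 genes, Bax included and Pmaip1 not searched) were searched on both strands for 6 patterns, after the values were seen. Of these the FOXO motif GTAAACA and the p53 half-site were picked for a closer description with the matches of all 6 known, because the pathway lists described further on include both factors. The FOXO motif was found in 2 of the 16 windows, 1 of Bbc3 and 1 of Bcl2l11, and in 3.65% of all 32851 windows. The sites are printed because Bbc3 rose and Bcl2l11, with the same letters near a start, was not called. Each is given 5′ to 3′ on the gene's strand with the motif in capitals; in Bbc3 it reads on the opposite strand.
Bbc3, chr7:16310083-16310111, plus strand: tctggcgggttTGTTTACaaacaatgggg
Bcl2l11, chr2:128125800-128125828, plus strand: aagacactaggGTAAACAcgccggggtgg
The Bbc3 motif starts 167 bases before the start used and the Bcl2l11 motif 227 bases before. The p53 half-site was found in windows of Bmf and Bax among the genes searched, which leave out Pmaip1, and in 8.36% of all windows. The looser FOXO form, GTAAACA or GTAAATA, matched the same 2 member windows and 6.54% of all windows. The E-box CACGTG was found in 2 member windows, of Bax and Bbc3, and in 7.15% of all windows. CACCC was found in 11 of the 16 member windows and 57.5% of all, and the GC box GGGCGG in 10 of the 16 and 35.7% of all. The 1 window of Bak1 held none of the 6 patterns. A match is a description of the letters, not of binding.

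Pmaip1 encodes NOXA, a BH3-only protein that binds MCL-1 selectively. It stood at 5.83, 5.85, 5.87 and 5.55 in WT and at 6.08, 6.03, 6.12 and 6.21 in KO. All KO arrays lay above all WT arrays, and WT replicate 4 lay apart below the other WT arrays. The mean went from 5.78 ± 0.15 to 6.11 ± 0.076 (SD, n = 4 per genotype), a difference of 0.33 ± 0.078 SE (95% interval 0.16 to 0.51, adjusted p = 0.0233). The WT mean lay close to the intensity filter of 5.56, where background compresses differences. The call was lost without KO replicate 1 (adjusted p = 0.0539), 3 (0.0565) or 4 (0.0564), each time with a difference of at least 0.30. It was also lost with the heat-shock covariate, at a difference of 0.35 (adjusted p = 0.0506), and over all probe sets, named or not (adjusted p = 0.0581).

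Bak1 encodes BAK, an effector that resides in the mitochondrial outer membrane. It stood at 9.60, 9.50, 9.56 and 9.52 in WT and at 9.04, 8.995, 9.18 and 9.28 in KO. The WT arrays lay within about 0.1 of each other, and the highest KO array was 0.22 below the lowest WT array. The mean went from 9.54 ± 0.046 to 9.12 ± 0.13 (SD, n = 4 per genotype). The difference was -0.42 ± 0.067 SE (95% interval -0.57 to -0.27, adjusted p = 0.00502), so that the KO level was 1.34-fold lower. The call held when any single array was left out, with differences from -0.47 to -0.38 and adjusted p up to 0.0187. Without KO replicates 1 and 2 the difference was -0.31 (adjusted p = 0.0559) and without WT replicates 2 and 3 it was -0.43 (adjusted p = 0.0544), and neither fit called it. Both refits had fewer arrays, and calls over all genes fell as well.

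**Figure D2:**
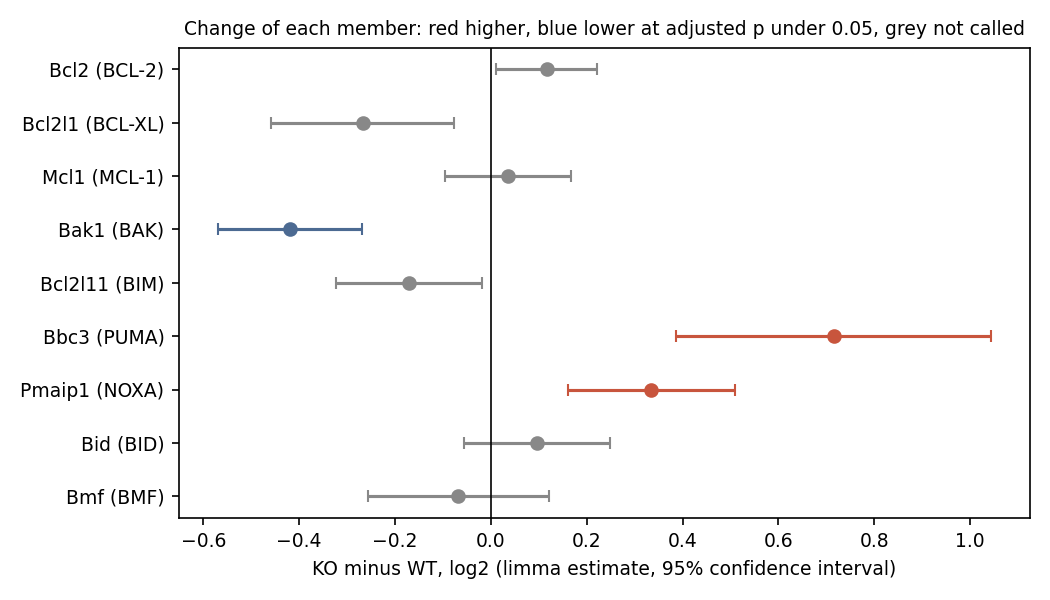
KO minus WT difference of each measured member on the log2 scale with its 95% confidence interval from limma; red marks calls higher in KO, blue calls lower in KO and grey members that were not called. The intervals of Bcl2, Bcl2l1 and Bcl2l11 also leave out 0 before adjustment, and those of Mcl1, Bid and Bmf contain it.

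The anti-apoptotic genes showed small differences in both directions. Bcl2 stood at 11.91, 11.86, 11.96 and 11.96 in WT and at 12.05, 12.05, 11.98 and 12.07 in KO. All KO arrays lay above all WT arrays, but by a margin of 0.020, set by KO replicate 3. The means were 11.92 ± 0.047 and 12.04 ± 0.040 (SD, n = 4 per genotype), and the difference of 0.12 ± 0.047 SE was not called (adjusted p = 0.136). Its interval, 0.011 to 0.22, corresponds to a level 1.01-fold to 1.17-fold that of WT. Bcl2 was called with an intensity trend and a robust prior (adjusted p = 0.0384).

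Bcl2l1 encodes BCL-XL, which is known for protecting double-positive thymocytes. It stood at 7.11, 7.42, 7.26 and 7.49 in WT and at 7.04, 7.02, 6.98 and 7.18 in KO. The genotypes overlapped only through WT replicate 1, which lay below KO replicate 4. The means were 7.32 ± 0.17 and 7.06 ± 0.087 (SD, n = 4 per genotype), with a difference of -0.27 ± 0.085 SE (95% interval -0.46 to -0.076, adjusted p = 0.069). It was called lower without WT replicate 1 (-0.34, adjusted p = 0.0220). Calls were also made after a second quantile normalization (adjusted p = 0.0399), with array weights (0.0492) and with the sample number as a covariate (0.0287).

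Mcl1, whose short-lived protein is required at several stages of T cell life, stood at 10.75, 10.85, 10.87 and 10.91 in WT and at 10.99, 10.81, 10.82 and 10.90 in KO. The genotypes overlapped throughout. The difference was 0.035 ± 0.059 SE (adjusted p = 0.741), and its interval, -0.096 to 0.17, spans a KO level from 0.935-fold to 1.12-fold that of WT. The protein was not measured.

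Bcl2l11, which encodes BIM, stood at 9.22, 9.39, 9.22 and 9.46 in WT and at 9.23, 9.13, 9.19 and 9.07 in KO. KO replicate 1 lay just above the 2 lower WT arrays, and the other KO arrays lay below all of WT. The means were 9.32 ± 0.12 and 9.15 ± 0.068 (SD, n = 4 per genotype), and the difference of -0.17 ± 0.068 SE was not called (95% interval -0.32 to -0.018, adjusted p = 0.131). It was not called under any of the 21 alternatives run, with adjusted p from 0.0888 to 0.279.

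Bid, the BH3-only protein that caspase-8 cleaves to link death receptors with mitochondria, lay between 6.78 and 6.97 in WT and between 6.84 and 7.07 in KO. Its difference was 0.096 ± 0.068 SE (95% interval -0.056 to 0.25, adjusted p = 0.391). Bmf, which is held on the cytoskeleton by dynein light chains, lay between 6.07 and 6.50 in WT and between 6.13 and 6.30 in KO. Its difference was -0.068 ± 0.085 SE (95% interval -0.26 to 0.12, adjusted p = 0.649). For both genes the ranges of the genotypes overlapped. Between WT arrays, Bmf varied most of the 9 members (SD 0.18) and Bak1 least (SD 0.046).

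The 2 genotypes did not overlap in 4 of the 9 members, with KO on the upper side in 3 (Bcl2, Bbc3 and Pmaip1) and on the lower side in 1 (Bak1). The same held for 20.3% of all tested genes, with KO on the upper side in 6.79% and on the lower side in 13.5%. Two-sided exact permutation tests on the single genes gave the smallest p that 4 against 4 arrays allow, 0.0286, for these 4 members. The same test gave 0.0571 for Bcl2l1, 0.0857 for Bcl2l11, 0.257 for Bid and 0.571 for Mcl1 and for Bmf.

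Because family proteins act by binding one another, the change of 5 pairs was also followed within each array, as the log2 ratio of 2 members minus its WT mean. The pairs were chosen with the members' changes known and are given without a test. The ratio of Bcl2 to Bcl2l11 was 0.23, 0.33, 0.19 and 0.40 in the KO arrays and -0.13 to 0.14 in WT, so that all KO arrays were higher. The ratio of Bcl2 to Bbc3 went the other way, at -0.94, -0.78, -0.37 and -0.30 in KO against -0.24 to 0.11 in WT. In these arrays the Bcl2 transcript was relatively more abundant in KO against that of BIM, by 0.29 on average, with neither gene called. Against that of PUMA it was less abundant (-0.60). In both pairs the margin between the genotypes was narrow.

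For Mcl1 the ratio to Bak1 was 0.65, 0.51, 0.34 and 0.32 in KO and -0.15 to 0.093 in WT, higher in all KO arrays. The ratio of Mcl1 to Pmaip1 was -0.16, -0.29, -0.37 and -0.38 in KO. KO replicate 1 was barely below the lowest WT array, at -0.15, and the highest WT array, at 0.29, was replicate 4, where Pmaip1 was low. The ratio of Bcl2l1, which was not called, to Bak1 was 0.02 to 0.24 in KO and -0.27 to 0.20 in WT, so that the genotypes overlapped. The ratios moved in both directions, by which partner was taken, and no single ratio stands for the family.

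**Figure D3:**
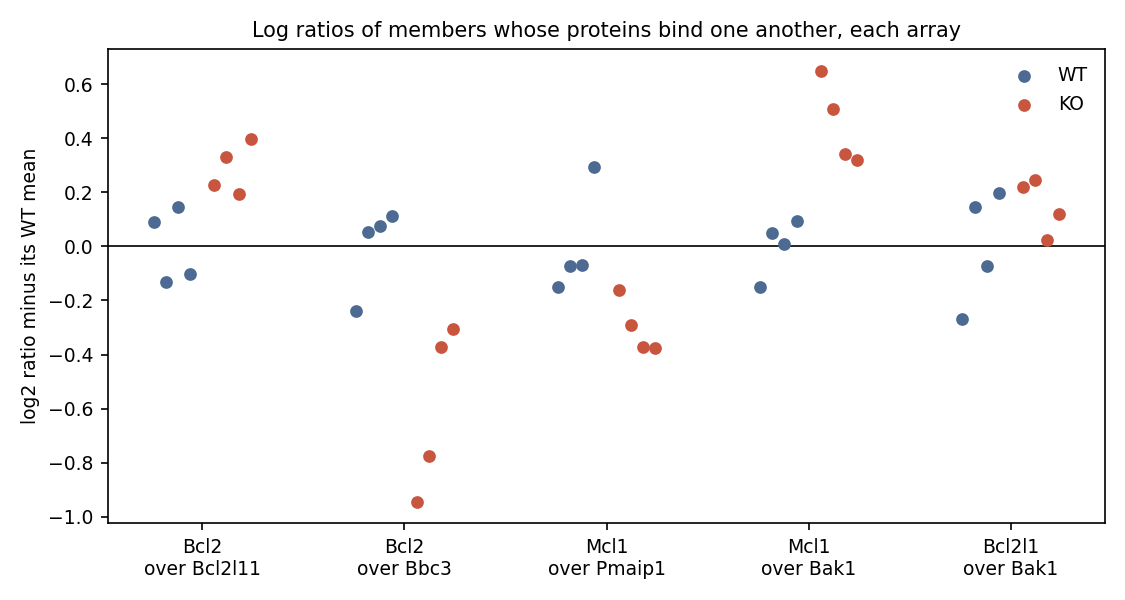
Log2 ratio of 2 members minus its mean over the WT arrays, for 5 pairs whose proteins bind, with 1 point per array (WT blue, KO red). KO arrays lie above WT for Bcl2 over Bcl2l11 and Mcl1 over Bak1, below WT for Bcl2 over Bbc3 and Mcl1 over Pmaip1, and overlap for Bcl2l1 over Bak1. Where they do not overlap, the margin is narrow except for Mcl1 over Bak1.

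Elsewhere in the family and among its accessory genes, 0 of 15 tested genes were called higher and 1 lower (limma; at an unadjusted p under 0.05, 1 was higher and 3 lower). The share called was 6.67%, beside 13.0% over all tested genes. At the unadjusted threshold the share was 26.7%, beside 29.2% over all tested genes. The called gene was Bnip1, a SNARE protein of the endoplasmic reticulum with a BH3-like stretch. It stood at 9.30, 9.30, 9.37 and 9.22 in WT and at 9.06, 9.12, 9.06 and 9.04 in KO, a difference of -0.23 ± 0.049 SE (adjusted p = 0.0171). No KO array reached the WT range. The co-chaperone Bag3 stood at 0.23 (adjusted p = 0.0711), the mitochondrial Bcl2l13 at -0.14 (0.123), Bag4 at -0.14 (0.126) and the anti-apoptotic Bcl2a1a at -0.12 (0.182). Bcl2a1a has near-identical copies in the genome, so its probe set may read them too. Bcl2l2, which encodes BCL-W, and the BH3-only Bad differed by -0.045 and 0.021.

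Downstream of BAX and BAK, genes of the apoptosome and caspases were either lower in KO or not called. Of 22 tested genes 0 were higher, also at an unadjusted p under 0.05, and 3 were lower (limma). They were Parp1, a DNA repair enzyme that caspases cleave, at -0.29 ± 0.049 SE (adjusted p = 0.00585), the mitochondrial flavoprotein Aifm1 at -0.24 ± 0.044 SE (0.00845), and Diablo, an inhibitor of IAP proteins, at -0.16 ± 0.044 SE (0.0436). The call of Diablo depended on every array, with adjusted p up to 0.118 in the refits without 1 of them. The channel gene Vdac1 stood at -0.18 (0.0865), cytochrome c (Cycs) at -0.14 (0.0953) and the caspase Casp6 at -0.18 (0.166). The count of 3 is 13.6% of the list, beside 8.53% lower over all tested genes, and ran from 0 to 5 over the alternatives. At an unadjusted p under 0.05 (limma) 6 were lower and 0 higher, which is 27.3% beside 29.2% over all tested genes in either direction. Of all 11585 tested genes, 2221 were lower at that threshold.

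The death receptor pathway reaches the family through BID. Of 15 tested genes 0 were called higher and 3 lower (limma), which is 20% lower beside 8.53% over all tested genes. At an unadjusted p under 0.05 (limma), 0 were higher and 9 lower, which is 60% beside 29.2% over all tested genes in either direction. Of all 11585 tested genes, 2221 were lower at that threshold. The count of called lower genes ran from 0 to 5 over the alternatives. Tnf was lower, at -0.77 ± 0.16 SE (adjusted p = 0.0134), the receptor Tnfrsf1b at -0.38 ± 0.059 SE (0.0043) and the TRAIL receptor Tnfrsf10b at -0.40 ± 0.097 SE (0.0273). The ligand Tnfsf10 stood at -0.20 (0.0546), the adaptor Fadd at -0.24 (0.0871) and the receptor Tnfrsf1a at -0.20 (0.109). The list's median was -0.17, against -0.030 over all tested genes. Leaving out WT replicate 2, 3 or 4, or KO replicate 2 or 4, ended the call of Tnfrsf10b, the adjusted p reaching 0.0686.

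Genes whose products act on family proteins, among them ubiquitin ligases of MCL-1, kinases of BIM and BAD, and the dynein light chains that hold BIM and BMF, showed no call. Of 19 tested, 0 were called (limma), beside 13.0% over all tested genes. At an unadjusted p under 0.05 (limma), 0 were higher and 5 lower, which is 26.3% beside 29.2% over all tested genes in either direction. Of all 11585 tested genes, 2221 were lower at that threshold. By p the first were Bag6 at -0.15 (adjusted p = 0.0646), the dynein light chain Dynll2 at -0.25 (0.0806), the 14-3-3 gene Ywhab at -0.15 (0.109), the kinase Mapk9 at -0.12 (0.113), Ywhae at -0.14 (0.168) and the kinase Rps6ka3 at 0.14 (0.216).

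Upstream, p53 is the best-known activator of Bbc3 and Pmaip1. Of 20 tested genes of its list 4 were higher and 1 lower, beside 4.45% and 8.53% over all tested genes, but 2 of the 4 are Bbc3 and Pmaip1 themselves. The count of higher genes ran from 1 to 5 over the alternatives and was 1 at an adjusted p under 0.01. The others were Rrm2b, a ribonucleotide reductase subunit, and the stress gene Sesn1. Rrm2b stood at 7.58, 7.72, 7.67 and 7.45 in WT and at 8.28, 8.19, 8.07 and 8.02 in KO (difference 0.54 ± 0.077 SE, adjusted p = 0.00285). Sesn1 was higher by 0.49 ± 0.092 SE (0.0102). The gene that was lower was Tnfrsf10b, given above, and Mdm4 stood at 0.16 (0.0867). Other known p53 targets of the list were not called, and the list's median was 0.04.

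FOXO factors are known to drive Bbc3, Bcl2l11 and genes of quiescence. Of 20 tested genes of the FOXO and PI3K list 4 were higher and 1 lower, beside 4.45% and 8.53% over all tested genes. The unadjusted threshold of 0.05 (limma) gave 8 higher and 2 lower, 50% beside 29.2% over all tested genes in either direction. Klf2, a transcription factor of naive T cells, stood at 9.77 to 10.15 in WT and at 10.42 to 10.67 in KO, without overlap (difference 0.68 ± 0.091 SE, adjusted p = 0.00206). The PI3K inhibitor Pik3ip1 was higher by 0.49 ± 0.12 SE (0.0256), the adaptor Irs2 by 0.33 ± 0.078 SE (0.0237) and the cell cycle inhibitor Cdkn1b by 0.28 ± 0.054 SE (0.0104). The pseudokinase Trib1 was lower, at -0.40 ± 0.075 SE (0.00970). The count of higher genes ran from 1 to 5 over the alternatives. Leaving out KO replicate 1 or 2, or WT replicate 4, ended the calls of Pik3ip1 and Irs2 (adjusted p up to 0.0688 for each), as did leaving out WT replicate 2 for Pik3ip1 and WT replicate 3 for Irs2. Il7r, the interleukin-7 receptor, stood at 0.17 (0.110).

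Gamma-chain cytokines sustain Bcl2 through STAT5. Of 20 tested genes of the list 2 were higher, the survival kinase Pim1 by 0.98 ± 0.090 SE (adjusted p = 0.000271) and Il6ra by 0.53 ± 0.053 SE (0.000447). Il6ra encodes the interleukin-6 receptor, which does not use the gamma chain. A further 2 were lower, the transcription factor Gfi1 at -0.41 ± 0.072 SE (0.00755) and the receptor Il2rb at -0.49 ± 0.10 SE (0.0138). The share called was 20% of the list, beside 13.0% over all tested genes, and the count of lower genes ran from 0 to 3 over the alternatives. The unadjusted threshold of 0.05 (limma) gave 3 higher and 4 lower, 35% beside 29.2% over all tested genes in either direction. Stat5a stood at -0.15 (0.0897) and Il7r at 0.17 (0.110), neither called. Bcl2 itself, a known target of this pathway, was not called, as described above.

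Strong T cell receptor signals induce NR4A factors and BIM in thymocytes undergoing deletion. Of 16 tested genes of this list 10 were lower and 1 higher. The share called was 68.8%, beside 13.0% over all tested genes, and was the largest of the 8 pathway lists described here. The lists were chosen with earlier results of these data known. This rank and the gap to all tested genes are therefore descriptions and not tests of the list. Irf4 was lower, at -0.56 ± 0.067 SE (adjusted p = 0.00118), Nr4a2 at -0.45 ± 0.065 SE (0.00299), Pdcd1 at -0.55 ± 0.086 SE (0.00447) and Egr1 at -0.36 ± 0.063 SE (0.00733). Tnfrsf4 and Tnfrsf18, also markers of regulatory T cells, were lower, at -0.49 and -0.32. Nr4a1, whose product Nur77 is known to act with BCL-2 at mitochondria, stood at 11.67 to 11.90 in WT and at 11.42 to 11.57 in KO, without overlap (difference -0.31 ± 0.065 SE, adjusted p = 0.0152). The gene that was higher was Ndrg1, at 0.30 (0.0145). The count of lower genes was 3 without KO replicates 1 and 2. Bcl2l11, which such signals induce, differed by -0.17 and was not called.

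**Figure D4:**
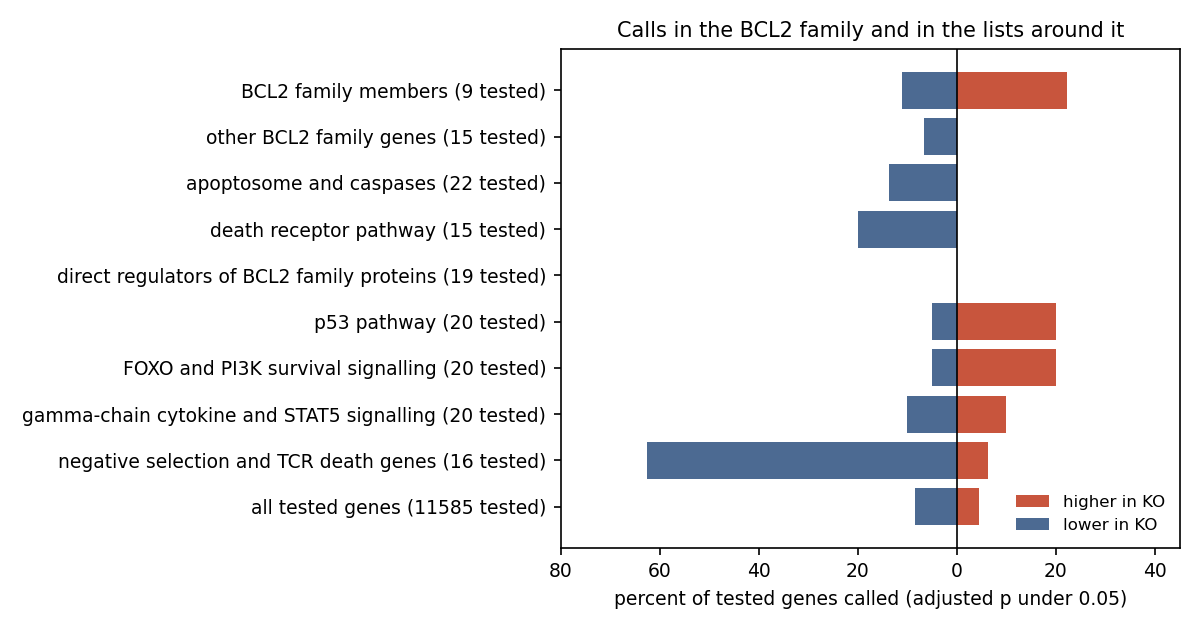
Percent of the tested genes of each list called higher (red, to the right) or lower (blue, to the left) in KO at an adjusted p under 0.05, with the number tested in brackets and all tested genes as the background. The members are called in both directions. In the p53 and FOXO lists 15 of 20 genes each are not called, and the called ones are mostly higher, with Bbc3 and Pmaip1 among those of p53. The negative selection list is mostly lower.

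**Figure D5:**
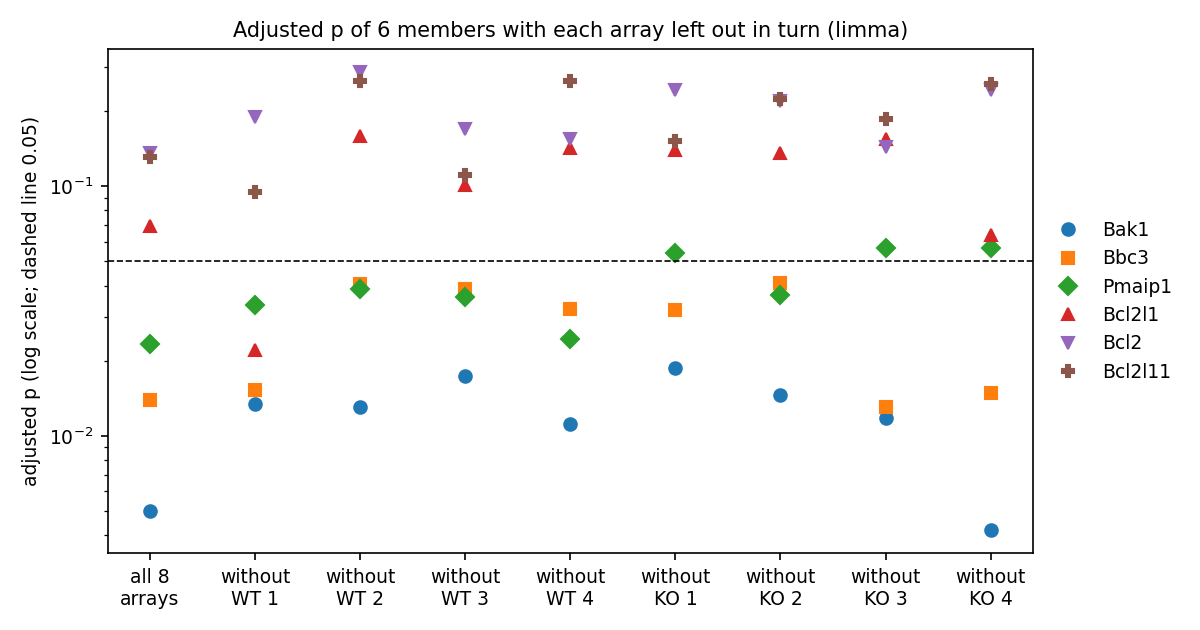
Adjusted p (log scale) of 6 members with all 8 arrays and with each array left out in turn; the dashed line marks 0.05. Bak1 and Bbc3 stay under the line in every case, Pmaip1 crosses it without KO replicate 1, 3 or 4, and Bcl2l1 drops under it without WT replicate 1.

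Leaving out single arrays kept Bak1 and Bbc3 called in each of 8 refits, the latter with differences from 0.60 to 0.81 and adjusted p up to 0.0410. Pmaip1 was kept in 5 of 8, as the plot of adjusted p by left-out array shows. Bcl2 and Bcl2l11 were called in none of these refits. The direction of all 9 members was the same after a second quantile normalization and with arrays centred on their medians.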

How the data were processed

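RNA of 8 samples was measured on 1 array each. The authors summarised every gene-level probe set by RMA and deposited log2 intensities; the submitters' processing notes name version 1.1 of Affymetrix Expression Console. No genome build is named in the labels. RMA's background correction and the amplification of little RNA shrink differences of dim genes, and 4 arrays per genotype limit the precision. Of 41345 probe sets, the platform annotation, which can be old, gives 23521 a single symbol and 1814 several, and 16010 are not listed. Each of 22180 genes was represented by its brightest probe set and tested where its mean was at least the median of all probe sets, 5.56. KO was compared with WT in limma 3.58.1 (R 4.3.3; lmFit, eBayes, two-sided, genotype only), with Benjamini-Hochberg adjustment over 11585 genes. The fit was tested on simulated data. Replicates were numbered in order of deposit and pair no samples.

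The members, pairs and lists were chosen with earlier results of these data known. Named were all members, Pggt1b, of other family genes the called and the next 4 by p, of each pathway list up to 6 (called first, then by p), and of each marker list the called and up to 4 brightest; Bcl2l2, Bad, Nr4a1, Ndrg1, Cd4, Foxp3, Nrp1, Lyz2, Hspa1a and Hspa1b were added after their values were seen. No set test was run. Alternatives covered the filter, the probe set summary, normalization, array weights, the prior, covariates, the threshold and left-out arrays.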

Additional observations from a re-analysis of the deposited data

Results flagged for a closer look

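In 22 groups of 4 arrays (the members, Pggt1b and Bnip1 in each genotype), the most extreme array was set against the others by its gap over the group's range and compared with the 95% critical value of Dixon. Chance exceeds that value in about 1 in 20 groups. Bcl2 in KO replicate 3 was the lowest of its group at 11.98, with the other KO arrays at 12.05 to 12.07. Without it the difference in Bcl2 was 0.14 and was still not called (limma adjusted p = 0.144). Pmaip1 in WT replicate 4 was the lowest of its group at 5.55, with the other WT arrays at 5.83 to 5.87. Without it the difference in Pmaip1 was 0.26 and was called (limma adjusted p = 0.0244).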

How the results depend on the processing

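Members called higher numbered 2. They numbered 3 with an intensity trend and a robust prior, 1 at a mean log2 of at least 6 (Pmaip1 not tested), with the heat-shock covariate or over all probe sets, and 0 at an adjusted p under 0.01 or without KO replicates 1 and 2 or WT replicates 2 and 3. Members called lower numbered 1. They numbered 2 in 3 settings (array weights, a second quantile normalization, the sample number in the model) and 0 without either pair of arrays. Without either pair, 2 members were higher and 1 lower at an unadjusted p under 0.05 (limma). The share over all tested genes at that threshold was not taken in these refits. These unadjusted counts therefore have no background to be read against, and no conclusion is drawn from them. With single arrays left out, the numbers of members called higher and called lower each ran from 1 to 2. Reversals of sign were found only for Mcl1 without KO replicate 1 (-0.0025, and up to 0.060 without another array) and for Bmf without WT replicate 2 (0.0088, and down to -0.13 without another array) or WT replicates 2 and 3 (0.041). Over all genes 515 were higher and 988 lower. These were 206 and 240 at an adjusted p under 0.01, 136 and 122 without KO replicates 1 and 2, and 150 and 145 without WT replicates 2 and 3. Lower genes numbered 556 with no intensity filter, 524 with the heat-shock covariate and 506 over all probe sets. With single arrays left out, 302 to 496 were higher and 493 to 945 lower. With arrays centred on their medians 383 were higher and 1321 lower. No paired analysis was possible because the labels carry no replicate numbers shared by the genotypes. Signal near background limits what Pmaip1 and Bmf can show, and Bax was not analysed here.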

Other observations

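Bcl2 and Mcl1 each had a second, dimmer probe set. The second of Bcl2 stood at 5.99 to 6.27 in WT and 6.11 to 6.46 in KO, with a difference of 0.13 beside 0.12 for the probe set used. The second of Mcl1 stood at 6.51 to 6.92 in WT and 6.68 to 7.03 in KO, with a difference of 0.064 beside 0.035. The directions matched within each gene, and in both dimmer probe sets the genotypes overlapped.

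Of the other family genes, 6 lay under the intensity filter. They were the BH3-only Hrk and Bik, at means of 3.93 and 5.22, and Bcl2l10, Bcl2a1c, Bcl2l15 and Bcl2l14, at 4.05 to 4.87. Fitted with no filter, they differed by -0.32 for Bcl2l14 up to 0.22 for Bik, with adjusted p from 0.129 to 0.918 (limma).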
